A study of Mus musculus with 4 samples.

Results

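The comparison covered the genes that were counted well in the hippocampus of F1m-CON and F1m-GCS mice, the offspring of dams on a control diet and on a choline-supplemented diet. A gene was taken when both libraries held at least 500 reads for it, which left 8927 of the 22328 listed genes, or 40.0%, and 8926 of these were protein coding. The taken genes held 96.4% of the gene reads in both libraries. Dams of the F1m-CON offspring ate 1.1 g/kg choline chloride and dams of the F1m-GCS offspring ate 5 g/kg, from embryonic day 9 until birth. The offspring of both groups ate a basal diet afterwards and went through mood-related behavioural tests at 2 months of age. The sources used here give neither the strain nor whether a library came from 1 animal or from a pool. The series also holds 2 libraries of a hippocampal cell line, HT22, which were not used here.

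Each group had 1 library, so there was no spread between animals and no test of the diet. The gene reads summed to 31175015 in F1m-CON and 30265820 in F1m-GCS, and each count was scaled to reads per 1e+06 gene reads of its library, CPM. Values are the log2 ratio of F1m-GCS to F1m-CON, with an exact 95% interval of the ratio of the 2 counts. The interval covers counting error only, and reads are not independent molecules. It reached 0.18 to each side of the ratio for a gene with 500 reads in both libraries. Genes were called higher or lower by size alone, at 1.2-fold or more, a log2 ratio of 0.26. Just inside the limit of 500 reads stood Fgf10, with 519 reads in F1m-CON and 500 in F1m-GCS. Just outside stood Cdh4, with 499 and 588, and Npas1, with 615 and 499.

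The hippocampus has densely packed excitatory neurons in the fields CA1, CA2 and CA3 and in the dentate gyrus, with inhibitory interneurons and glia among them. The choroid plexus, an epithelium that secretes cerebrospinal fluid, lies against the hippocampus in the ventricle and can come along when the hippocampus is taken out. Choline feeds the synthesis of phosphatidylcholine and acetylcholine and, through betaine, the methionine cycle that supplies methyl groups. In bulk tissue fewer cells of a type and less RNA per cell cannot be told apart.

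The label hippocampus was checked against markers of its cells and of its neighbours, on the authors' RPKM scale, which is per length of coding sequence. Snap25, a synaptic protein of all neurons, stood at 2273.5 RPKM in F1m-CON and 2217 in F1m-GCS. Prox1, which marks dentate granule cells, stood at 59.7 and 60.9 RPKM, and Wfs1 of CA1 at 46.5 and 44.1. Grik4, which marks CA3, had a log2 ratio of 0.08 (-0.01 to 0.16). All these markers of the hippocampus were present at like levels in both libraries. Drd2 of the striatum stood at 0.821 and 1.29 RPKM and Tcf7l2, which marks the thalamus, at 2.73 and 2.77. Ttr, the thyroid hormone carrier made by the choroid plexus, stood at 2987 and 2590.4 RPKM, above Snap25 in both libraries, so both libraries held choroid plexus RNA.

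Differences were small across the whole set. The median log2 ratio was -0.01, the middle of the distribution ran from -0.09 to 0.07 between quartiles, and the extremes were -0.56 and 0.83. Higher calls numbered 501 genes, or 5.61% of the set, and lower calls 145 genes, or 1.62%. Of the higher genes 32 were at least 1.5-fold higher, and 0 genes were 1.5-fold lower. The counting interval lay on 1 side of 0 for 1895 genes above it and 2220 below it, together 46.1% of the set. For genes with a mean of at least 5000 reads, the counting SD was 0.023 and the robust SD of the ratios was 0.092. The spread among deeply counted genes was thus wider than counting error, and with 1 library a group diet, animal, dissection and library preparation cannot be told apart.

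Coding length moved with the ratio. In 10 equal groups by coding length, the median ratio went from -0.10 in the shortest (median 432 bases) to 0.10 in the longest (median 5103 bases). The medians stood in the order of length in all 10 groups. The shortest group held 9 higher and 42 lower calls, and the longest 152 higher and 5 lower. Spearman's rho between coding length and ratio was 0.45 across the 8927 genes. This is a description, since genes share the 2 libraries and are not independent replicates. A smooth curve of the ratio on coding length was therefore taken off each gene, giving a length-corrected ratio. After it 437 genes were higher, or 4.90%, and 65 were lower, or 0.728%. Of these, 387 higher and 58 lower genes had also been called before the correction.

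**Figure D1:**
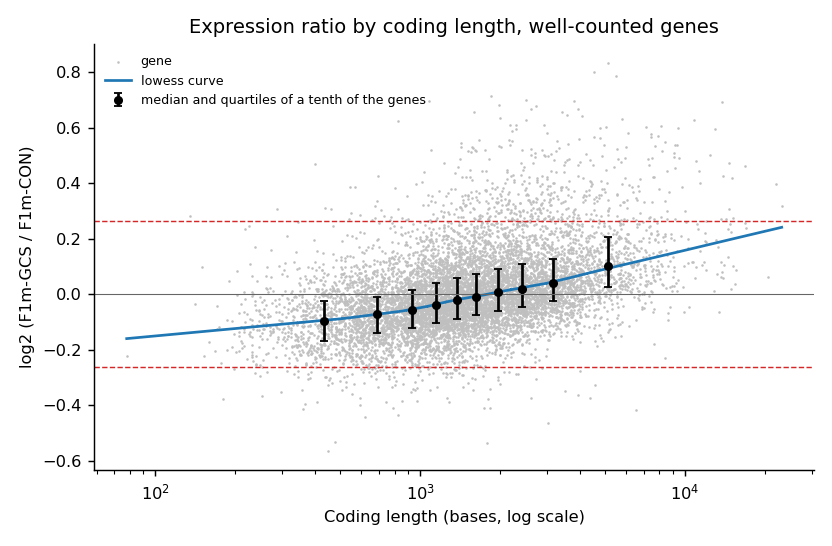
Log2 ratio of F1m-GCS to F1m-CON (vertical) against coding length in bases (horizontal, log scale) for the 8927 well-counted genes, 1 grey point each. Black points and bars are the median and quartiles of 10 equal groups, which go from -0.10 to 0.10, the blue line is the curve taken off in the correction, and the dashed lines mark 1.2-fold.

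The base composition of the transcript moved with the ratio as well, and the length correction did not take this out. GC content, from the GENCODE transcript with the longest coding sequence, was known for 8856 of the genes. Its rho with the ratio was -0.26 before and -0.32 after the length correction. In the group of 10 with the lowest GC, 259 of 886 genes were higher and 6 lower, and in the group with the highest GC 4 were higher and 11 lower. Higher calls were densest where both properties met. Among genes in both the longest of 3 length groups and the lowest of 3 GC groups the median was 0.17, and 294 of 965 genes were higher. Equally long genes of the highest GC group had a median of 0.01, with 5 of 988 higher. A longer 3′ UTR went with a higher ratio too, with a rho of 0.22 both before and after the length correction.

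**Figure D2:**
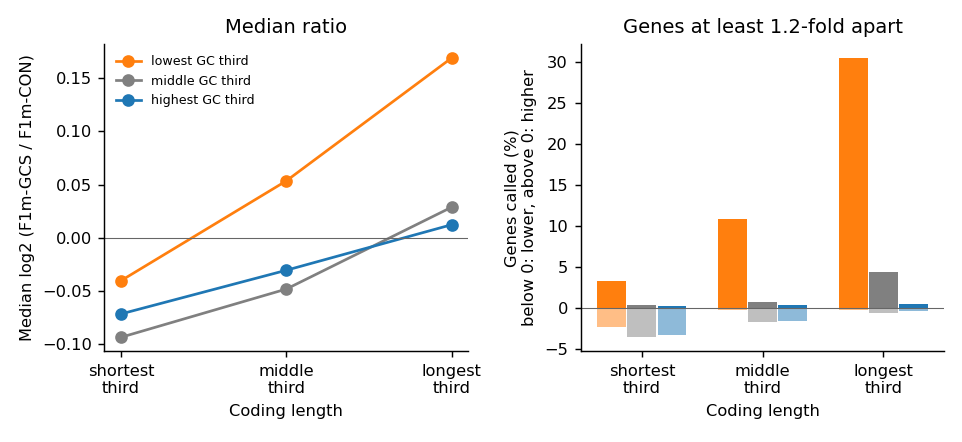
Left, median log2 ratio of F1m-GCS to F1m-CON in genes split into 3 groups by coding length (horizontal) and 3 by transcript GC content (colours). Right, the percentage of each group called higher (above 0) or lower (below 0): long genes with low GC hold 294 higher calls of 965 genes, and long genes with high GC hold 5 of 988.

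GC content of the promoter had a weaker relation. RefSeq windows of 300 bases, 250 before the start and 50 after it on GRCm38.p6, matched 6763 of the well-counted genes. Their median GC content was 62.3% over all these genes, 62.1% in the 389 higher genes and 61.0% in the 100 lower ones. Spearman's rho between promoter GC content and ratio was 0.07. The relation with transcript GC content, at -0.26, was stronger and had the opposite sign.

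The 12 highest genes had transcripts with 33.9% to 41.6% GC, below the median of 50.6% over all well-counted genes. Arhgap5, a GTPase-activating protein, had 46.3 CPM in F1m-CON and 80.7 in F1m-GCS, a log2 ratio of 0.80 (0.71 to 0.90). Its transcript, at 33.9% GC, was the poorest in GC of the whole set. Qser1, a protein that binds DNA regions free of methylation, had 531 and 918 reads (0.83, interval 0.68 to 0.99). Phip, which binds modified histones and insulin receptor substrate, had 29.0 and 50.1 CPM (0.79, 0.67 to 0.91). Stag2, a subunit of the cohesin ring, had 44.1 and 71.6 (0.70, 0.60 to 0.80). Others among the 12 highest were Fut9, Zfp871, Ddx3y, Ncam2, Arid4b, Usp34 and Zfml, at ratios from 0.63 to 0.71. Ddx3y has a related gene on the X chromosome, and whether reads were shared between them was not measured.

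Corrections for length, GC and 3′ UTR length took the highest genes down by different amounts. Fut9, which adds fucose to cell-surface sugars, has a coding length of 1080 bases and a 3′ UTR of 10401 bases. Its ratio was 0.70 as counted, 0.74 after the length correction and 0.31 after all 3 properties were taken off. Arhgap5 went from 0.80 to 0.72 and 0.32, and Zfp871 from 0.71 to 0.71 and 0.44. Qser1 kept most of its value, with 0.83, 0.74 and 0.59. Kitl, the ligand of the Kit receptor, joined the 8 highest after the length correction, with 20.2 and 31.1 CPM and a corrected ratio of 0.69. All these genes stayed above 1.2-fold with all 3 properties taken off.

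The lowest genes were markers of the choroid plexus, ribosomal protein genes and a few neuronal and matrix genes. Rps4x, a protein of the small ribosomal subunit, had 44.2 and 33.3 CPM (-0.41, -0.53 to -0.29). Ribosomal protein genes have many processed copies in the genome, so such counts are uncertain. Npnt, an extracellular matrix ligand of integrins, had 53.2 and 40.0 (-0.41, -0.52 to -0.30). Id3, an inhibitor of basic helix-loop-helix factors, had 49.4 and 37.1 (-0.41, -0.53 to -0.30). Cacng5 and Gsg1l, both auxiliary proteins of AMPA-type glutamate receptors, had ratios of -0.43 (-0.60 to -0.27) and -0.38 (-0.50 to -0.27). Lgals3bp, a secreted glycoprotein, stood at -0.41. After the length correction Ace and Arap1, a GTPase-activating protein for Arf, joined the 8 lowest, Arap1 at -0.45.

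Markers of the choroid plexus were the list farthest from 0. Of the 20 markers 12 were well counted, and 11 of these were below 0. Their median ratio was -0.34, against -0.01 for all well-counted genes. Of the 12, 0 were called higher and 7 lower, against 5.61% and 1.62% of all well-counted genes. The median was -0.35 after the length correction and -0.34 with GC content corrected too. Ecrg4, listed as 1500015O10Rik, which encodes a secreted peptide precursor, had 54.0 CPM in F1m-CON and 36.5 in F1m-GCS (-0.56, interval -0.68 to -0.45). Clic6, a chloride channel protein, had 44.1 and 30.4 (-0.54, -0.66 to -0.42). Kl, the anti-ageing protein klotho and co-receptor of FGF23, had 105.8 and 76.7 (-0.47, -0.54 to -0.39). The intervals of Ecrg4, Clic6 and Kl lay wholly beyond 1.2-fold.

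Other choroid plexus products followed with smaller differences. Sostdc1, an inhibitor of BMP and Wnt signals, had 27.9 and 20.5 CPM (-0.44), F5, coagulation factor V, had 25.8 and 19.3 (-0.42), and Ace, angiotensin-converting enzyme, had 34.4 and 26.7 (-0.36). Enpp2, the enzyme autotaxin, which oligodendrocytes also make, had 1099.6 and 888.9 (-0.31, -0.33 to -0.28). Kcne2, a potassium channel subunit, stood at -0.25 (-0.41 to -0.09). Ttr had 52044 reads in F1m-CON and 44039 in F1m-GCS, a ratio of -0.20 (-0.22 to -0.18), which became -0.11 after the length correction. Igfbp2 stood at -0.19 and Slc13a4 at -0.17. Prlr, the prolactin receptor, was the exception as counted, at 0.14 (-0.03 to 0.31), and stood at 0.01 with length and GC taken off and at -0.14 with 3′ UTR length as well.

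The other 8 choroid plexus markers missed the limit of 500 reads in 1 or both libraries, and all 8 were below 0. Aqp1, the water channel of the epithelium, had 464 reads in F1m-CON and 257 in F1m-GCS (-0.81, -1.04 to -0.59). Steap1 had 203 and 118 (-0.74), Kcnj13, a potassium channel, 295 and 173 (-0.73), and Folr1, the folate receptor that carries folate into the cerebrospinal fluid, 542 and 364 (-0.53). Otx2, the transcription factor that specifies the tissue, had 460 and 378 (-0.24, -0.44 to -0.04). Their median was -0.43, against -0.34 for the well-counted members. Ependymal cells, which line the same ventricle, were thinly covered. Of their 14 markers 2 were well counted, Foxj1 at -0.10 (-0.28 to 0.07) being the defining one. The 10 ependymal markers below the limit with at least 100 reads in the sum of both libraries had a median of -0.07, with 8 below 0 and 2 above, and ran from -0.45 to 0.76. The share of choroid plexus tissue in each dissection was not measured, and its part in these differences was not tested.

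**Figure D3:**
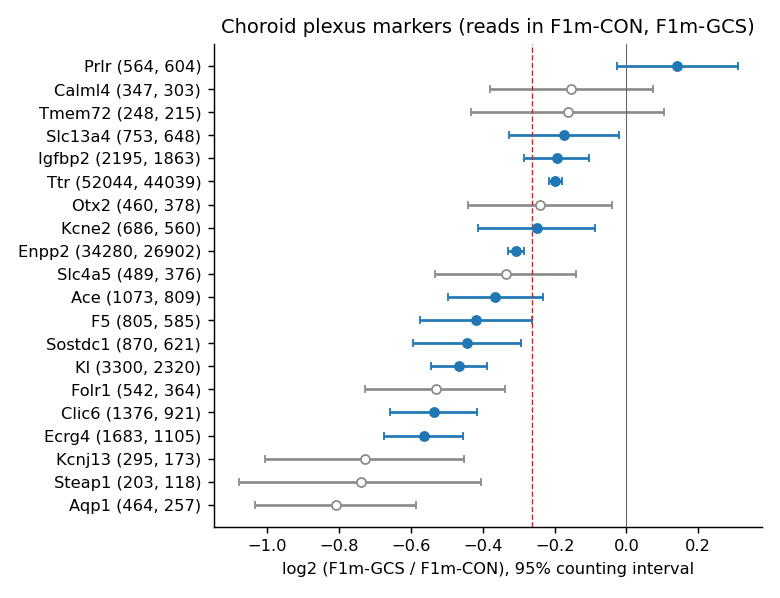
Log2 ratio of F1m-GCS to F1m-CON with its 95% counting interval for the 20 choroid plexus markers, with the reads in F1m-CON and F1m-GCS in brackets. Filled points are the 12 well-counted markers and open points the 8 below the limit; 19 of the 20 lie below 0, and the dashed line marks 1.2-fold.

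The start regions of 3 choroid plexus genes with the lowest ratios and an entry in the RefSeq table are shown beside that of Arhgap5, the gene with the highest interval. CG dinucleotides, the sites of DNA methylation, are in capitals. Each window runs 5′ to 3′ on the gene's strand, with 50 bases past the listed start at its end. Of 25174 windows compared with GENCODE transcript starts 63.2% matched, so a listed start need not be the one in use.
F5 (chr1:164151585-164151884, plus strand): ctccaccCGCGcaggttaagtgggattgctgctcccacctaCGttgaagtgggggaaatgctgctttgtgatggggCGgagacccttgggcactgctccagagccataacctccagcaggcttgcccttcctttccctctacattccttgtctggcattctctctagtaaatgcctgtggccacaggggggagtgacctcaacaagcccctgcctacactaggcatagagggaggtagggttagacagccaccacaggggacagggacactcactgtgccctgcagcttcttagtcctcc
Ecrg4 (chr1:43730352-43730651, plus strand): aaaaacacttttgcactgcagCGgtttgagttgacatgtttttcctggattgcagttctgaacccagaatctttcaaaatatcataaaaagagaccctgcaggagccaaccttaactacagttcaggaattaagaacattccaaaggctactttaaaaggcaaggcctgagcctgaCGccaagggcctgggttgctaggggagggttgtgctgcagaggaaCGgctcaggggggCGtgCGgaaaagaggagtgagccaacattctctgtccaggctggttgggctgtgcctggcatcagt
Kl (chr5:150952357-150952656, plus strand): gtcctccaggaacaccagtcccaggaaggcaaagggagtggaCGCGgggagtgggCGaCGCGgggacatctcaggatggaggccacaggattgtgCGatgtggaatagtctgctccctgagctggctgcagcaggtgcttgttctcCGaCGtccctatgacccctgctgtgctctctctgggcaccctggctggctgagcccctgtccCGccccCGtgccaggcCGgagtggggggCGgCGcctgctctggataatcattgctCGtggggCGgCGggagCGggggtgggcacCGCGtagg
Arhgap5 (chr12:52515827-52516126, plus strand): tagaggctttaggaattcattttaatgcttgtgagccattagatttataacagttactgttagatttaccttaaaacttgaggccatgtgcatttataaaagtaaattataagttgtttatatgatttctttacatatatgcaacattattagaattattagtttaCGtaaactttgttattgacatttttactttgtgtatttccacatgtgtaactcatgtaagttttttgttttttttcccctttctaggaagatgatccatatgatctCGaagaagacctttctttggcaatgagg
The window of F5 held 4 CG sites, that of Ecrg4 5, that of Kl 19 and that of Arhgap5 2, against a median of 22 over the well-counted genes. At its listed start the Arhgap5 window held a run of t and c ending in ag, a pattern found at the end of introns. That start may thus lie inside the gene, and the CG count of Arhgap5 need not describe a promoter. Over the 8 choroid plexus genes with a window the median was 5.5 CG sites, and Kl was among the members above it. The core motif of OTX factors, TAATCC on either strand, was in 0 of these 4 windows. Counting a gene when any of its windows held the motif, it was in 1 of 8 choroid plexus genes with a window (Ace). Over all well-counted genes with a window it was in 442 of 6763, or 6.54%. A match or its absence in a window of this length says nothing about binding.

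Markers of astrocytes, microglia and oligodendrocytes had medians slightly below 0, those of oligodendrocyte precursors a median above it, and neuronal markers one near it. Of 24 astrocyte markers 23 were well counted, with a median of -0.11, 18 of them below 0, and -0.08 after the length correction. Gjb6, a gap junction protein, had 58.9 CPM in F1m-CON and 50.3 in F1m-GCS (-0.23), Aldoc, a glycolytic enzyme, 766.2 and 672.7 (-0.19), and Cst3, a protease inhibitor, 830.7 and 721.5 (-0.20). Not all astrocyte genes went this way. Fabp7, a fatty acid binding protein of radial glia and astrocytes, had 23.4 and 30.7 (0.39, 0.25 to 0.53). Aqp4, the water channel of astrocyte endfeet, had 175.0 and 205.9 (0.23, 0.18 to 0.29), and Slc1a2, the main glutamate transporter, 2229 and 2430.4 (0.12). Fabp7 stayed above 1.2-fold under the corrections, at 0.47 for length, 0.43 for length and GC and 0.38 with 3′ UTR length as well. Aqp4 passed 1.2-fold under the length correction alone, at 0.29, and stood at 0.22 and 0.12 under the other two.

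Microglial markers were below 0 in 13 of the 16 that were well counted, with a median of -0.09, and -0.06 after the length correction. C1qc, a chain of complement C1q, had 44.3 and 36.4 CPM (-0.28), although C1qa and C1qb stood at -0.04 and -0.10. Ctss, a lysosomal protease, was at -0.26 and Cx3cr1, the fractalkine receptor, at -0.24 (-0.34 to -0.14). Tmem119 and Selplg were both at 0.03, and Laptm5 at 0.13. Oligodendrocyte markers had a median of -0.08 and 18 of 24 below 0. Mog was at -0.23 and Mal at -0.23, whereas Ermn, a cytoskeletal protein of myelinating cells, was at 0.22. After the length correction the oligodendrocyte median was -0.03 and 0 of its markers were lower by 1.2-fold, against 0.728% of all well-counted genes. Of the 10 well-counted markers of oligodendrocyte precursors 6 were above 0, with a median of 0.07 as counted, 0.04 after the length correction and -0.04 with GC content corrected too. Olig2, a transcription factor of the lineage, was their 1 call at -0.34 (-0.46 to -0.22), against 1.62% lower calls over all well-counted genes. Pdgfra, the defining growth factor receptor, was at -0.00 (-0.08 to 0.08).

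The neuronal list, 22 genes all well counted, had a median of -0.03, with ratios from -0.10 for Uchl1 to 0.22 for Map2. Map2 has a long coding sequence and stood at 0.12 after the length correction. Neither direction had a call, against 5.61% higher and 1.62% lower over all well-counted genes. Snap25 and Rbfox3 stood at -0.03 and 0.01. Markers of CA1 had a median of 0.03, of CA3 0.06 and of the dentate gyrus -0.06. Within CA1, 3 of 13 genes were higher, against 5.61% of all well-counted genes. Ndst4, which modifies heparan sulfate, had 16.1 and 25.5 CPM (0.67, 0.50 to 0.83), Gpr161, a receptor of the primary cilium, 32.6 and 41.9 (0.36), and Etv1, a transcription factor, 73.9 and 94.6 (0.36). Wfs1, the defining marker, was at -0.07, so the defining gene did not go with these 3.

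Within the dentate gyrus list 2 of 14 genes were lower, against 1.62% of all well-counted genes. They were Npnt at -0.41 and Plk5, a polo-like kinase, at -0.38 (-0.52 to -0.24). Pdzd2, a scaffold protein, was lower by 1.2-fold after the length correction only, from -0.23 to -0.37. Prox1 was at 0.04 (-0.02 to 0.09) and Calb1 at -0.01, so the defining gene of the granule cells differed by no more than counting error. Of immature neuron markers Dcx, a microtubule protein of migrating neurons, stood apart with 24.8 and 35.6 CPM (0.52, 0.38 to 0.65). Neurod1 stood at -0.00 and Tubb2b at -0.07.

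Interneuron markers had a median of 0.04 as counted and 0.10 after the length correction, with 23 of 26 well counted. Erbb4, the neuregulin receptor of parvalbumin cells, had 59.7 and 82.5 CPM (0.47, 0.38 to 0.55), Ndnf, which marks neurogliaform cells, 16.9 and 20.6 (0.28), and Cnr1, the cannabinoid receptor of cholecystokinin cells, 230.6 and 274.4 (0.25). Pvalb, the calcium buffer of fast-spiking cells, had 38.2 and 31.3 (-0.29, -0.41 to -0.16). Gad1 and Gad2, which both make GABA, stood on opposite sides, at -0.12 and 0.10, and Sst was at 0.01. With length and GC taken off, Erbb4 dropped to 0.15 and Ndnf to 0.20, while Cnr1 kept 0.28.

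**Figure D4:**
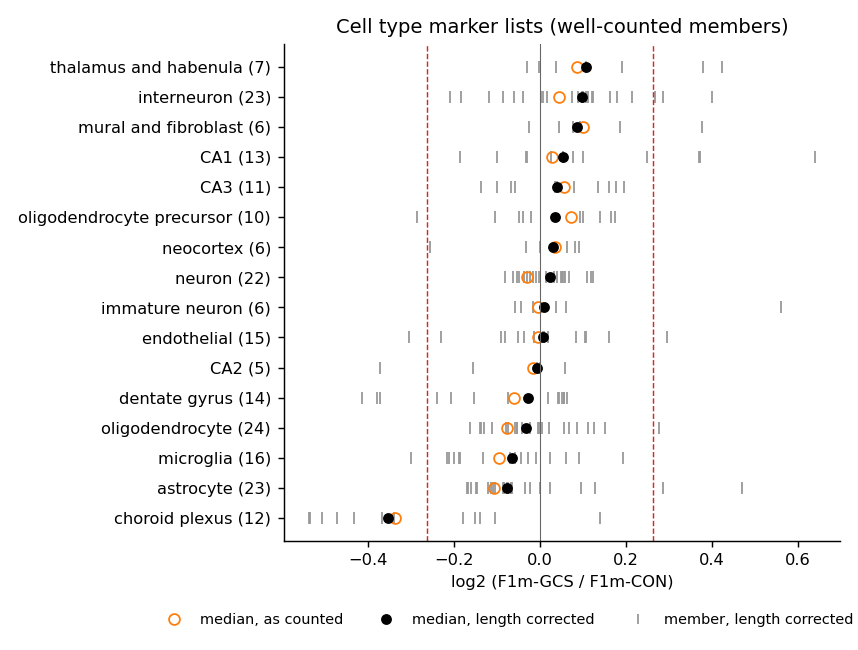
Log2 ratio of F1m-GCS to F1m-CON for the cell type marker lists with at least 5 well-counted members (number in brackets). Open circles are medians as counted, black points are medians after the length correction, ticks are the members after it and dashed lines mark 1.2-fold: the choroid plexus stands apart at -0.35, and the other medians lie between -0.08 and 0.11.

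Markers of the thalamus and habenula, which border the hippocampus, were above 0 in all 7 that were well counted of 15. The median was 0.09, and 0.11 after the length correction, when 5 were above 0 and 2 below. Rora, a nuclear receptor, had 912 and 1179 reads (0.41, 0.29 to 0.54), and Slc17a6, the vesicular glutamate transporter of the thalamus, 651 and 821 (0.38, 0.23 to 0.53). Prkcd was at 0.20. The defining marker Tcf7l2, with 195 and 193 reads, was under the limit and at 0.03 (-0.27 to 0.32). The 6 markers below the limit with at least 100 reads in the sum of both libraries had a median of 0.01, with 3 on each side of 0. The part of dissection in this list was not tested.

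GABA-A receptor subunits were the receptor family with the highest median. These subunits form the pentameric chloride channel that carries fast inhibition, usually from alpha and beta chains with a gamma or delta chain. Of 18 listed subunits 12 were well counted, with a median of 0.16, and 0.18 after the length correction. Of the 12, 3 were higher and 1 lower, against 5.61% and 1.62% of all well-counted genes. Gabrb1 had 30.6 CPM in F1m-CON and 44.7 in F1m-GCS (0.55, 0.43 to 0.67). Gabrb2 had 68.4 and 98.9 (0.53, 0.45 to 0.61), and Gabra2 had 37.7 and 49.0 (0.38, 0.27 to 0.49). Gabrd, the delta subunit of extrasynaptic receptors, had 35.4 and 29.3 (-0.27, -0.40 to -0.14).

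Other alpha subunits differed little. Gabra5, which is rich in the hippocampus, was at -0.04 (-0.08 to 0.00), and Gabra4, the partner of delta, at 0.01 (-0.06 to 0.07). Subunit genes lie in clusters, and neighbours in a cluster differed. On chromosome 5, Gabrg1 stood at 0.22, Gabra2 at 0.38, Gabra4 at 0.01 and Gabrb1 at 0.55. On chromosome 7, Gabrg3 stood at 0.17 and Gabra5 at -0.04. The transcripts of this family were poor in GC, with a median of 42.5% against 50.6% for all well-counted genes. With length and GC taken off the family median was 0.09, and with 3′ UTR length as well it was 0.02. Gabrb1, Gabrb2 and Gabra2 were still above 1.2-fold with length and GC taken off, at 0.45, 0.56 and 0.29. With 3′ UTR length as well Gabrb2 stood at 0.50 and Gabrb1 at 0.30, and Gabra2 was under 1.2-fold at 0.14. The transcript used for Gabrb2 had a 3′ UTR of 0 bases, against 12228 for Gabrb1 and 4205 for Gabra2. The corrected values of Gabrb2 therefore depend on that transcript and cannot be set evenly beside the others.

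Ionotropic glutamate receptors, the excitatory counterparts, had 15 of 18 subunits well counted and a median of 0.08. Of the 15, 5 were called higher, against 5.61% of all well-counted genes. Grin2b, an NMDA receptor subunit, had 619.4 and 816.8 CPM (0.40, 0.37 to 0.43), and Grin2a had 29.2 and 38.3 (0.39, 0.26 to 0.52). Grin1, the obligate subunit, was at 0.06 (0.02 to 0.09). Grik2 was at 0.35, Gria3 at 0.31 and Gria2, which makes AMPA receptors impermeable to calcium, had 700.1 and 847.6 (0.28). Gria1 was at 0.05. With length and GC taken off, Grin2b was at 0.24, Grik2 at 0.16, Gria3 at 0.13, Gria2 at 0.09 and Grin2a at 0.08, and 0 of the 5 stayed above 1.2-fold. Of the metabotropic receptors Grm5 and Grm7 were at 0.31 and 0.27, and Grm2 at -0.13.

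**Figure D5:**
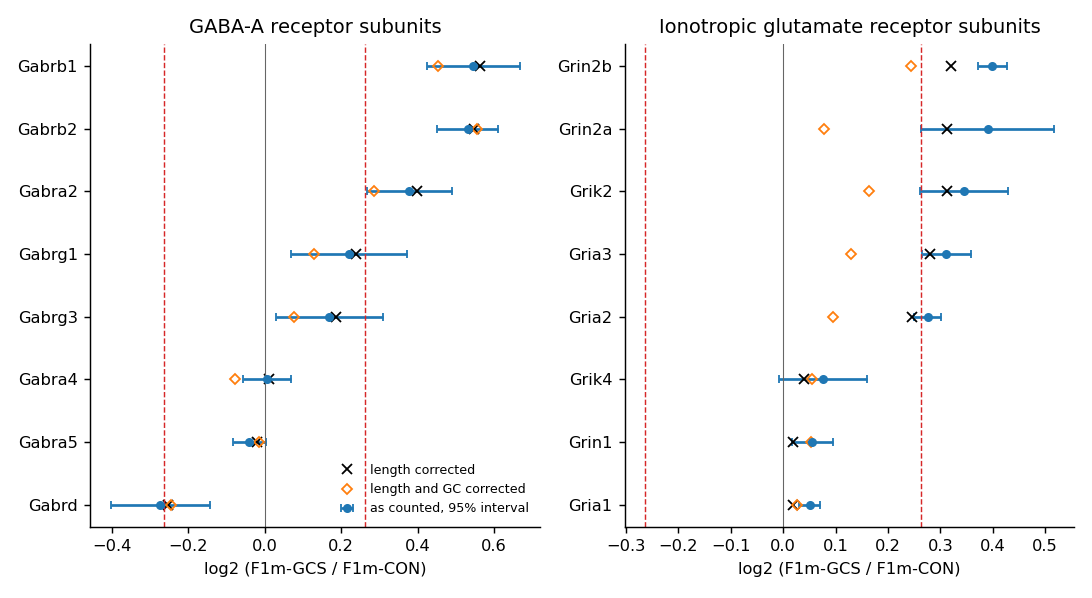
Log2 ratio of F1m-GCS to F1m-CON for 8 well-counted subunits of GABA-A receptors (left) and 8 of ionotropic glutamate receptors (right), those named in the text. Blue points and bars are values as counted with 95% counting intervals, crosses are length corrected, diamonds are corrected for length and GC, and dashed lines mark 1.2-fold: Gabrb1, Gabrb2 and Gabra2 stay beyond it in all 3, while Grin2a drops from 0.39 to 0.08.

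Potassium channels had a median of 0.02 over 48 genes, with 4 higher and 1 lower, shares near the 5.61% and 1.62% of all well-counted genes. Kcnt2, a sodium-activated channel, had 22.5 and 35.4 CPM (0.66, 0.52 to 0.80), and Kcnh7, of the ERG family, 38.2 and 59.8 (0.65, 0.54 to 0.75). Kcnma1, the large-conductance calcium-activated channel, was at 0.38. Kcnj2, an inward rectifier, was at -0.39 (-0.56 to -0.22) with 675 and 500 reads. Kcnt2 and Kcnh7 were still at 0.42 and 0.41 with length and GC taken off.

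Families of long proteins lay above 0 as counted and near 0 after the length correction. The 22 gene entries for giant cytoskeletal linkers, such as spectrins, ankyrins and nuclear envelope anchors, were all above 0. Their median was 0.19 with 6 higher calls, and 0.03 with 1 higher call after the correction. Over all well-counted genes 5.61% were higher before the correction and 4.90% after it. Macf1, which links microtubules to actin, went from 0.40 to 0.16, and Golgb1, a Golgi tether, from 0.39 to 0.23. Eea1, an endosome tether, stood at 0.50 as counted, 0.43 after the correction and 0.19 with GC taken off too. CHD chromatin remodellers went from a median of 0.16, with all 9 above 0, to 0.02. HECT and UBR ubiquitin ligases went from 0.16 to -0.01, and the pores of sodium and calcium channels from 0.10 to -0.02.

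Families of short proteins showed the same with the opposite sign. Of 33 well-counted subunits of respiratory complex I 32 were below 0, with a median of -0.11 that became -0.03 after the length correction. All 15 subunits of complexes II and III were below 0, with a median of -0.12 that became -0.05. Complex IV went from -0.17 to -0.05 over 9 genes, with Cox7a2 at -0.26 and Cox4i1 at -0.20 as counted. Mitochondrial ribosomal proteins went from -0.11 to -0.03 over 63 genes. Cytosolic ribosomal proteins kept more of the difference, from -0.15 to -0.07 over 34 of 86 genes. Rps24 stood on the other side of 0, at 0.47 (0.35 to 0.59), and 52 of the 86 had too few reads, so the family's median covers a minority of its genes.

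Across all 81 lists and families, 17 had a median beyond 0.1 before the length correction and 4 after it. The 4 were the choroid plexus, ependyma, thalamus and habenula, and GABA-A receptor subunits. Ependyma, with 2 well-counted genes, and thalamus and habenula were not among the 17. Their medians were -0.08 and 0.09 before the correction and -0.16 and 0.11 after it. With GC content and 3′ UTR length taken off too, they were -0.13 and 0.07. The medians of 18 lists changed sign with the correction. Small list medians as counted therefore cannot be read apart from coding length in these 2 libraries.

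Some families kept their side of 0 under the corrections. Zinc finger proteins with Zfp names, mostly DNA-binding repressors, had 150 of 357 genes well counted and 100 of these above 0. The median was 0.06, and 0.05 after the length correction. Of the 150 genes 28 were higher before it and 28 after, against 5.61% and 4.90% of all well-counted genes. Lower were 2 and 1, against 1.62% and 0.728%. Zfp871 had 23.9 and 39.3 CPM (0.71, 0.58 to 0.85), and Zfp81 had 21.6 and 34.0 (0.66, 0.52 to 0.80). Zfp771, with 1310 and 1001 reads, was lower at -0.35. Genes with similar sequences can share reads, which was not measured here, so single values are uncertain. The median of Zfp-named genes was 0.01 among those with at least 2000 reads. All 8 subunits of the CCT chaperonin, which folds actin and tubulin, were below 0 with a median of -0.07 as counted and -0.06 after the correction. Aminoacyl-tRNA synthetases were below 0 in 22 of 30, at -0.07 and -0.08.

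Genes that handle choline were looked at because the diets differed in it. Of 34 genes of choline and phosphatidylcholine metabolism 25 were well counted and 18 were above 0, with a median of 0.07 and 0.06 after the length correction. Gpcpd1, which splits glycerophosphocholine, had 109.6 and 137.1 CPM (0.32, 0.26 to 0.39). Chpt1, which completes phosphatidylcholine, had 44.4 and 54.0 (0.28, 0.18 to 0.39). These 2 of the 25 were the higher calls, against 5.61% of all well-counted genes. Both were under 1.2-fold with length and GC taken off, at 0.19 and 0.22. Etnk1, ethanolamine kinase, was at 0.19 (0.15 to 0.22) and Ache, which breaks down acetylcholine, at 0.18. Slc44a1, a choline transporter, was at -0.07 (-0.14 to -0.01), and Pcyt1a, the rate-limiting step of phosphatidylcholine synthesis, at -0.10 (-0.20 to 0.00).

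Genes of the methionine and folate cycles lay on the other side. Of 37 genes 17 were well counted and 14 were below 0. The median was -0.10, and -0.08 after the length correction. Of the 17, 1 was lower, against 1.62% of all well-counted genes. Shmt2, the mitochondrial serine hydroxymethyltransferase, had 820 and 637 reads (-0.32, -0.47 to -0.17). Aldh7a1, which oxidises betaine aldehyde among other substrates, had 106.2 and 90.1 CPM (-0.24), Mtrr, which reactivates methionine synthase, was at -0.23 (-0.39 to -0.07), and Slc19a1, the folate carrier, at -0.20. Mthfd1 was at 0.04 and Amd1 at 0.07. All these differences but that of Shmt2 were smaller than 1.2-fold. Of 22 genes that write, remove or read DNA methylation 14 were well counted. Tet2, which oxidises methylcytosine, was the 1 higher call of the 14, against 5.61% of all well-counted genes. Tet2 had 32.4 and 45.0 CPM (0.48, 0.36 to 0.60), and 0.37 after the length correction. The list's median was 0.02.

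Receptors for corticosteroids and their chaperones had a median of -0.05 over 19 genes, and -0.01 after the length correction. Nr3c1, the glucocorticoid receptor, had 92.5 and 110.8 CPM (0.26, 0.19 to 0.33) and Nr3c2, the mineralocorticoid receptor, 278.1 and 316.1 (0.18, 0.14 to 0.23). Fkbp5, a co-chaperone and target of the receptor, had 92.4 and 80.3 (-0.20, -0.28 to -0.12). Hsp90aa1, a chaperone of the receptor, was at 0.27 as counted and 0.09 with length and GC taken off. The list of glucocorticoid targets had a median of -0.08 as counted and 0.02 after the length correction. Klf15, a transcription factor induced by glucocorticoids, was its 1 lower gene of 15 at -0.28, against 1.62% of all well-counted genes. Interferon response genes were mostly under the limit. Of 33 such genes 5 were well counted, all below 0, with a median of -0.11 as counted and -0.06 after the correction.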

How the data were processed

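Poly(A)-selected, paired-end RNA-seq of 2 mouse hippocampus libraries was analysed, 1 per group. The series' design text names Trim Galore for trimming, TopHat2 for alignment to mm10 (at most 2 mismatches, mapping quality 4 or more) and HTSeq for counting. CASAVA 1.8 stands in the submitters' processing notes. Strand setting: not given in the sources used here, so overlapping genes cannot be told apart. The deposited count columns hold the authors' raw read counts per gene, to which 79.4% (F1m-CON) and 79.0% (F1m-GCS) of uniquely mapped reads contributed. The deposited RPKM values are scaled by coding length and by uniquely mapped reads, and served only for levels between genes. The authors' deposited log2 fold changes and p-values from edgeR were not used, because each group has 1 library.

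Counts were divided by the library's sum of gene reads. Log2 ratios have exact conditional Clopper-Pearson 95% intervals (Python 3.11.15, scipy 1.17.1). The length curve was a lowess (statsmodels 0.14.6, fraction 0.3, 3 robust steps). The correction for length with GC took off medians of 10 by 5 groups, and one with 3′ UTR length, by successive lowess curves, was added after seeing the data. GC content and 3′ UTRs came from the GENCODE M21 transcript with the longest coding sequence, and the deposited coding length equalled the GENCODE one in 8372 of 8856 matched genes. The functions were tested on simulated data. No p-value was computed, since no fit would have residual degrees of freedom.

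The members and all lists were chosen with earlier results of these data known. Named genes are the 12 highest and 12 lowest by the interval bound nearest 0, the same 8 and 8 after the length correction, both leaving out Gm and Rik names, plus, for each list described, its defining genes and at most 3 on each side farthest from 0 after the length correction. Further list members, given for contrast, were chosen after their values were seen. Some genes that the rule names are not reported here. Alternatives were TMM (edgeR 4.0.16) and DESeq2 1.42.0 scaling, other read minimums, call rules and corrections.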

Additional observations from a re-analysis of the deposited data

How the results depend on the processing

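No list median beyond 0.1 turned its direction under an alternative. Nor did any of the 12 highest and 12 lowest genes, or of the 8 and 8 after the length correction. The alternative corrections were set against length-corrected values only. Other list members were not part of this check. Among them Prlr went from 0.14 as counted to -0.14 with length, GC and 3′ UTR length taken off. TMM, DESeq2 and median scaling raised every log2 ratio by 0.01, so list medians this close to 0 have no sure side. With at least 200 reads in both libraries, 755 genes were higher and 345 lower (699 and 223 after the length correction), and with at least 2000 reads 149 and 14 (116 and 3, Enpp2 and Kl among the 3); the cause was not tested, and the spread of the ratios was narrower among deeper genes. At 2000 reads, 7 lists were beyond 0.1 after the length correction instead of 4. Asking for an interval wholly past 1.2-fold left 219 higher and 13 lower genes, and 175 and 12 once length was corrected. The count of 437 higher genes dropped to 221 with length and GC corrected together, and to 193 with 3′ UTR length as well, while 78 and 87 were lower against 65. The length-corrected choroid plexus median was beyond 0.1 under every alternative correction, scaling and read minimum tried, from -0.38 to -0.33; GABA-A receptor subunits were not with GC corrected. The other 38 values of these counts and of the length relation were within 1.5 times of the main ones. Depth limits single genes at 500 reads to differences of about 0.18. No paired analysis was possible because each group has 1 library.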

Other observations

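Single genes stood apart from families that were otherwise near 0. Lars2, the mitochondrial leucyl-tRNA synthetase, had 228.6 CPM in F1m-CON and 322.3 in F1m-GCS, a log2 ratio of 0.50 (0.45 to 0.54), against a median of -0.07 for the 30 well-counted aminoacyl-tRNA synthetases. It stayed at 0.51 with length and GC content taken off. Rps24, at 0.47, likewise stayed at 0.58, though counts of ribosomal protein genes are uncertain. Reads shared with similar sequences elsewhere in the genome were not measured for Lars2 or Rps24. Clock, a core factor of the circadian oscillator, was at 0.42 as counted but 0.24 with length and GC taken off, and Dbp, one of its output genes, at -0.29 (-0.39 to -0.20), while Per1 and Per2 were at 0.09 and 0.07; the sources used here do not give the hour at which tissue was taken. Rgs5, a marker of pericytes, was at 0.29 (0.22 to 0.36). The 15 well-counted endothelial genes lay on both sides of 0, 7 above and 8 below, from Eng at -0.30 (-0.45 to -0.15) to Slco1a4 at 0.30 (0.20 to 0.41).

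Genes on the Y chromosome were read in both libraries. Ddx3y had 1085 reads in F1m-CON and 1692 in F1m-GCS (0.68), Uty 381 and 486 (0.39), Eif2s3y 1537 and 1667 (0.16) and Kdm5d 875 and 948 (0.16). The interval of Ddx3y, 0.57 to 0.80, did not overlap that of Eif2s3y, 0.06 to 0.26, and the reason was not tested.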
